A study of Oryza sativa Japonica Group with 15 samples.

Results

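Rice seedlings were laid on their side for 0.5 h, and the lower flank of their shoot bases was compared with whole shoot bases at 0 h. The arrays were taken by their labels, lower shoot base at 0.5 h and shoot base at 0 h, and no measured value entered the choice. The comparison is between 6 of the 15 arrays of the series, 3 arrays of each group, and none of the 6 was left out of the main fit. The plants were Oryza sativa of the Japonica Group, 21 days old, grown in soil under a day and night cycle and kept in the dark for 16 h before harvest or turning. Those of the 0 h group stood upright, and those of the 0.5 h lower flank group had been rotated by 90 degrees, after which the side that faced down was collected. The labels name no mutation, transgene or chemical in either group. The remaining arrays held the upper flank at 0.5 h and both flanks at 6 h, again 3 each. They entered the choice of the brighter probe sets and the estimate of spread behind the calls. Their own values are given here only beside the lower flank. Each array, an Affymetrix chip with sets of short probes for rice transcripts, read the pooled RNA of many seedlings, so the spread between arrays is the spread between pools. The 0 h sample was the whole shoot base while the 0.5 h sample was a cut flank, and flanks of upright plants were not analysed here. Turning, the time elapsed in the dark and the choice of tissue piece therefore cannot be told apart in any difference below.

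The shoot base of a grass seedling holds the meristem, the bases of the leaf sheaths and the youngest stem tissue. A laid plant bends upwards when cells on the lower side elongate faster than those on the upper side. Cells of the shoot sense the direction of gravity by sedimenting starch grains, auxin is then moved towards the lower side by membrane carriers, and auxin releases its response genes from Aux/IAA repressors. SAUR genes, small transcripts induced within minutes of auxin treatment, and enzymes that loosen or build cell walls are among the best known early targets. Calcium sensors, jasmonate and gibberellin have also been tied to the response.

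A value below is the log2 signal of a probe set minus the median log2 signal of its array, so that 0 is the level of the median probe set. Levels are compared between arrays for 1 probe set, never between genes. Array medians before centring ran from 17.2 to 29.5 in the deposited intensity. Each lower flank array was brighter than the 0 h array of the same number, at 29.5, 23.0 and 22.5 against 24.6, 18.5 and 18.9. Replicate 1 arrays also stood apart in a labelling control that is added to the RNA: its 5′ probe set read 120 and 177 in the replicate 1 arrays compared and 18.4 to 26.3 in the other 4, a split that fell alike on both groups. The shoot meristem markers OSH1, OSH6, OSH43 and OSH71 lay above the array median in both groups, and the log2 of their summed level was 8.06 to 8.09 at 0 h and 8.01 to 8.12 in the lower flank. Of the root markers LSI1, LSI2, QHB and IRT1, all 4 were above the median too. The log2 of their summed level was 4.47 to 5.34 at 0 h and 5.52 to 5.58 in the lower flank, so that the groups did not overlap, although none of the 4 was called. The single differences were 0.74 for LSI1, 0.21 for LSI2, 0.25 for QHB and -0.15 for IRT1, and only LSI1 was without overlap. The green leaf markers RBCS, CAB2R and RCA were above the median too, with 0 calls. The log2 of their summed level overlapped, at 4.92 to 6.25 at 0 h and 5.57 to 6.35 in the lower flank. RBCS by itself did not overlap, at 0.84 to 1.17 at 0 h and 1.38 to 1.48 in the lower flank. The endosperm markers GLUA1, prolamin and GBSSI had group means below the median at 0 h and in the lower flank, and GLUA2 was above it. Their summed level was 2.92 to 3.21 at 0 h and 2.63 to 2.91 in the lower flank, narrowly without overlap too. Among them only GLUA2 was without overlap by itself, at 2.87 to 3.09 and 2.55 to 2.62, and it was not called.

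At 0.5 h the lower flank differed from 0 h in 469 of 28629 probe sets tested, or 1.64% (limma over 15 arrays, Benjamini-Hochberg adjusted p under 0.05, "called" from here on). Of these, 93 were higher in the lower flank (0.325%) and 376 were lower (1.31%). The changes were small: the median fold was 2.02 for the rises and 1.72 for the falls, and 153 calls (0.534%) reached 2-fold, 47 upwards and 106 downwards. In every call the 3 lower flank arrays lay outside the range of the 3 arrays at 0 h, a condition that 21.4% of all tested probe sets met. In such bulk RNA, fewer cells of a type and less of a transcript per cell cannot be told apart. Of the 469, 318 carry 1 gene in the array's annotation, 150 carry none and 1 carries several, and 66 have a symbol or a description that says what the product is.

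**Figure D1:**
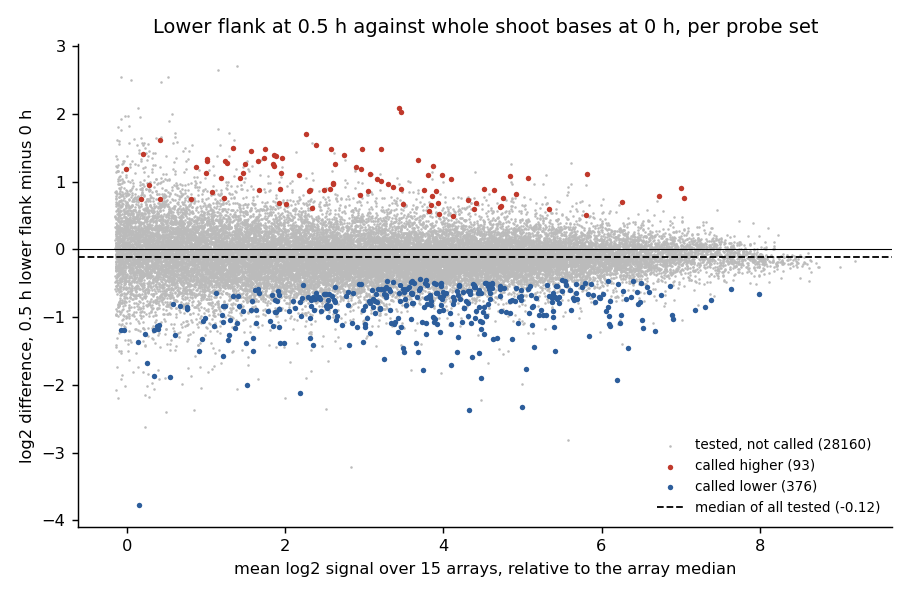
Log2 difference of the 0.5 h lower flank from 0 h (vertical axis) against mean log2 signal over 15 arrays (horizontal axis), 1 point per probe set, with the 93 called rises in red and the 376 called falls in blue. The calls spread over the whole range of signal, and the dashed line, the median of all 28629 tested probe sets, lies at -0.12 rather than at 0.

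The balance of rises and falls depended on how arrays were scaled. With each array centred on its own median, the median difference over all tested probe sets was -0.12 on the log2 scale. Under quantile scaling, which gives all arrays the same distribution, that median moved to -0.0035, and 416 probe sets (1.45%) were called, 200 higher and 216 lower. Rises thus made up 19.8% of the calls with median centring and 48.1% with quantile scaling. Centring on the tested probe sets alone gave 233 rises and 176 falls, a share of 57.0%, and the signals as deposited, with no centring, gave 59 rises and 15 falls, a share of 79.7%. All 469 called probe sets kept their sign under quantile scaling, with quantile-scaled differences of 0.29 to 3.77 in size. Over all tested probe sets 24246 of 28629 kept it. Of the 93 rises, 89 were also called under quantile scaling, and of the 376 falls 202 were.

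The calls drew on the spread of all 15 arrays. The 469 calls and the adjusted p-values given come from a fit that does not pair the arrays, unless another setting is named. With a replicate block, which pairs arrays by replicate number, 1894 probe sets (6.62%) were called, the 469 among them. Of the 1894, 320 were higher and 1574 lower. From the 6 arrays alone limma called 0, with 3696 at an unadjusted p under 0.05, against 4912 in the fit of 15. Leaving out 1 array gave 428, 160 and 179 calls without 0 h replicates 1, 2 and 3. It gave 64, 142 and 80 without lower flank replicates 1, 2 and 3. Of the 469, 43 were called in all 6 such fits and 123 in none. Without the replicate 1 arrays of every group, an alternative chosen after seeing the data, 39 were called, of which 30 were among the 469. All 469 kept their sign there, but this was fixed in advance, since the groups did not overlap in any call. Over all tested probe sets 25733 of 28629 kept it.

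**Figure D2:**
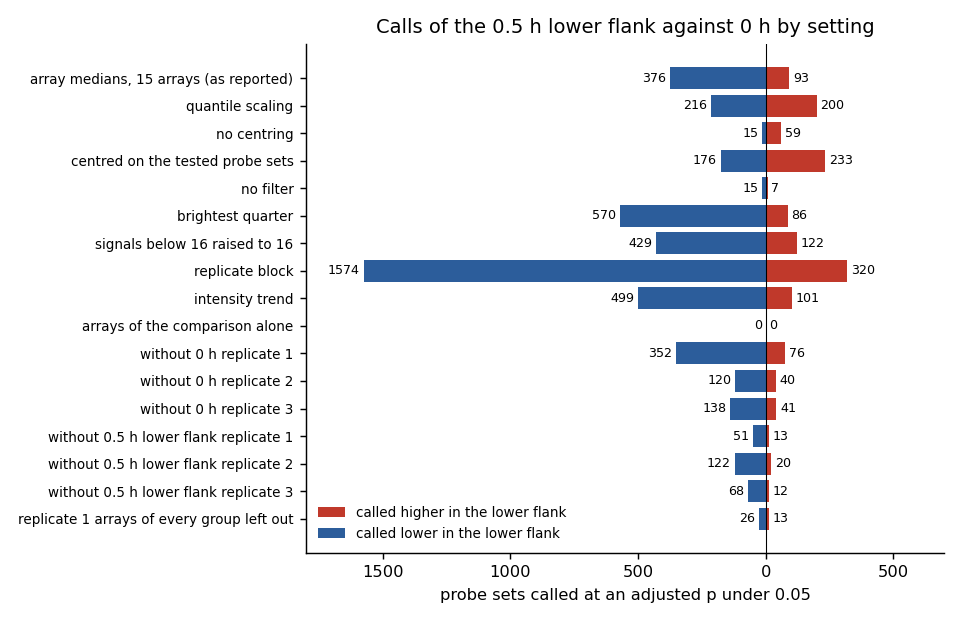
Probe sets called higher (red, to the right) and lower (blue, to the left) in the 0.5 h lower flank than at 0 h, under each setting. The number of calls ran from 0 with 6 arrays to 1894 with the replicate block, and the split moved from 93 higher and 376 lower to 200 and 216 under quantile scaling.

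The largest named rise was that of OsPht1;6 (LOC4346342, chromosome 8), a phosphate transporter of the PHT1 family. It read 2.84, 2.14 and 1.60 at 0 h and 3.86, 3.69 and 4.16 in the lower flank. Every lower flank array exceeded the highest array at 0 h, a difference of 1.71 ± 0.34 (SE) and a fold of 3.27 (adjusted p = 0.031), and 1.85 under quantile scaling. Among 14 tested genes of phosphate transport and SPX proteins, the phosphate sensors, it was the only call. The gene was called in 1 of the 6 fits that left out 1 array each. The summed root markers given above were higher in the same arrays, and their part in this rise was not tested.

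A PIN gene of auxin transport rose as well. The auxin efflux carrier listed as both PIN9 and PIN5 (LOC4327533, chromosome 1) read 3.43, 2.67 and 2.03 at 0 h and 3.91, 4.21 and 3.69 in the lower flank. The lowest lower flank array was only slightly above the highest array at 0 h, and the difference was 1.22 ± 0.27 (SE, adjusted p = 0.042). When 1 of the 6 arrays was left out, the gene was called in 1 of the 6 fits. It was the 1 call among 6 tested auxin carriers. The next, OsPIN5a, differed by 0.60 with an adjusted p of 0.056, or 0.030 with the replicate block. OsPIN2 differed by 1.01 (adjusted p = 0.19), OSPIN10a by 0.34 and OsPIN4 by 0.23, and the carrier listed as pinA by -0.28, none of them called. The median of the 6 was 0.47, beside -0.12 over all tested probe sets, and 0.61 under quantile scaling.

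The LOB domain protein Os08g44940, of a plant family of transcription factors first described at organ boundaries, read 1.70, 1.53 and 1.52 at 0 h and 3.17, 2.62 and 2.66 in the lower flank. The lower flank arrays stood clear of the 0 h arrays by a difference of 1.23 ± 0.22 (SE, adjusted p = 0.022). The upper flank at 0.5 h read 2.36, 1.46 and 2.11, which overlapped the 0 h arrays. Lower against upper flank, the difference was 0.84 with an adjusted p of 0.99, so the gap between flanks was not called.

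Enzymes and scaffolds of the cell wall moved in both directions. OsCel9A (LOC4324643, also GLU5), an endoglucanase of glycosyl hydrolase family 9 that cuts β-1,4-glucans, read 1.63, 1.76 and 1.29 at 0 h and 3.16, 3.07 and 2.81 in the lower flank. All 3 lower flank arrays were more than 1 log2 unit above the highest array at 0 h, and the difference was 1.45 ± 0.25 (SE, adjusted p = 0.020). OsCel9F (GLU14), of the same family, rose by 1.06 ± 0.20 (adjusted p = 0.029). OsCel9C, also of this family, went the other way, from 1.84, 1.91 and 2.78 to 0.84, 1.11 and 1.21, a fall by 1.13 (adjusted p = 0.035). These family members were named for the size of their change, and the family as a whole was not counted. BC1 (LOC4333114), a COBRA-like protein needed for the strength of cellulose walls in the rice stem, rose from 3.21, 3.57 and 3.53 to 4.17, 4.60 and 4.29, with a difference of 0.92 ± 0.15 (adjusted p = 0.017). CSLA9, of the cellulose synthase-like family that makes mannans, fell from 3.25, 2.94 and 4.16 to 1.71, 2.36 and 2.06. Its difference was -1.41 ± 0.25 (SE, adjusted p = 0.023), with no overlap between the groups. It was the 1 call among 16 tested cellulose synthase-like genes, whose median was 0.09, with 9 of 16 above 0. The replicate block called 4 of them, of which 1 was higher.

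EXPA6, an expansin, a protein that loosens walls without cutting them, fell from 6.74, 6.68 and 7.10 to 5.83, 6.11 and 6.24, by 0.77 (adjusted p = 0.035). It was the 1 call among 10 tested alpha-expansins, whose median difference was -0.16, and the replicate block added EXP1 (-0.96, adjusted p = 0.039). None of 9 beta-expansins was called, with a median of 0.17 and 6 of 9 above 0. The highest was EXPB2 at 1.09 (adjusted p = 0.058), and with the replicate block EXPB2 (0.035) and EXPB6 (0.58, adjusted p = 0.043) were called. None of 9 cellulose synthases was called either, and their median was 0.08.

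Both calcium sensors that were called rose. CML17, a calmodulin-like protein (LOC9272185), read 2.51, 1.55 and 1.59 at 0 h and 3.41, 3.04 and 3.28 in the lower flank, a difference of 1.36 ± 0.22 (SE, adjusted p = 0.014). CML5, listed also as OsCAM-2, rose by 1.12 ± 0.24 (adjusted p = 0.038), from 0.84, 0.33 and 0.36 to 1.64, 1.46 and 1.79, on a probe set that can take up related transcripts. At neither sensor did a lower flank array reach down to the 0 h arrays. The list of calmodulins and CML proteins held 24 tested genes, with a median of 0.01 and 12 above 0, and the replicate block added CML10 (0.52, adjusted p = 0.024). CIPK10, a protein kinase switched on by a CBL calcium sensor, fell by 0.74 (adjusted p = 0.032, 0.082 under quantile scaling), but 3 other probe sets of the gene gave -0.0042, -0.41 and -0.66, none called. The gene was the 1 call among 27 tested CBL and CIPK genes, whose median was -0.21. The replicate block called 2 of the 27, with 0 of them higher.

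Peroxidases were called in both directions once replicates were paired. A cationic peroxidase (Os03g02939) rose by 0.96 ± 0.19 (adjusted p = 0.032), peroxidase 73 (Os08g42030) by 0.81 (adjusted p = 0.032) and peroxidase 66 (Os03g02920) by 0.50 (adjusted p = 0.037). Class III peroxidases of this kind act in the wall, where they cross-link phenolics or form radicals. They were 3 calls among 15 tested peroxidases, whose median was 0.48, with 8 of 15 above 0. A pair with larger differences missed the threshold, Os07g44590 at 1.99 (adjusted p = 0.092) and Os05g04470 at 1.66 (adjusted p = 0.17). With the replicate block 5 were called, the 3 above, Os04g56180 higher (0.65, adjusted p = 0.034) and Os01g73170 lower (-0.90, adjusted p = 0.036). That list, like the lists of SAUR and of ribosomal proteins matched by description, holds only genes of the study's own tables, which were chosen on these samples, so it is not independent evidence of direction. A precursor of pathogenesis-related protein 5 (Os11g47670) rose by 0.90 ± 0.19 (adjusted p = 0.037), and a second probe set of that gene gave 0.46 (adjusted p = 0.61). Among 9 ribosomal proteins of the same tables all lay above 0, and the large-subunit proteins L30 (0.89, adjusted p = 0.048) and P2A (0.60, adjusted p = 0.045) were called. Neither was called under quantile scaling, both at an adjusted p of 0.050. Among 23 ribosomal proteins matched by symbol 0 were called, 1 had an unadjusted p under 0.05, and the median was -0.06, with 1 call in the replicate block, rpl5 (-0.51, adjusted p = 0.049). A gene described as a long cell-linked locus protein (Os03g19070) rose by 1.12 (adjusted p = 0.041).

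**Figure D3:**
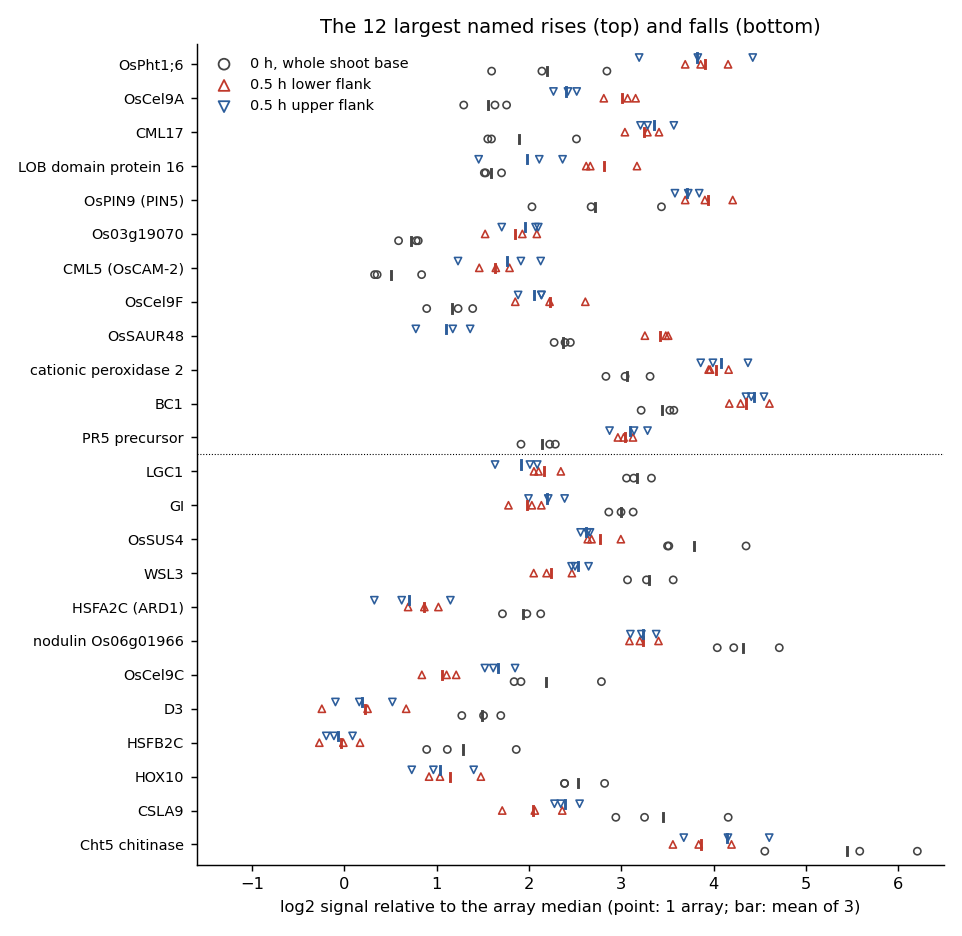
Log2 signal relative to the array median for the 12 largest named rises (above the dotted line) and the 12 largest named falls, with 1 point per array and a bar at the mean of 3, for 0 h (circles), the 0.5 h lower flank (upward triangles) and the 0.5 h upper flank (downward triangles). The genes were picked among those whose lower flank and 0 h arrays are apart, and OsSAUR48 is the 1 gene in which the upper flank lies on the other side of 0 h.

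The largest named falls were those of a chitinase, a mannan synthase family member and a set of regulators. Cht5, a chitinase of the class that degrades fungal walls (LOC4336265, chromosome 4), read 5.58, 4.55 and 6.21 at 0 h and 3.84, 3.56 and 4.19 in the lower flank. The 0 h arrays were widely spread, with an SD of 0.83, and the difference was -1.58 ± 0.34 (SE, adjusted p = 0.038), or 0.064 under quantile scaling. A nodulin-like protein (Os06g01966) fell from 4.04, 4.22 and 4.71 to 3.09, 3.20 and 3.40, by 1.09 (adjusted p = 0.034, 0.068 under quantile scaling).

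A pair of class III homeodomain-leucine zipper genes fell. HOX10 (LOC4331345), a factor of the kind that sets the upper side of leaves and the vasculature, read 2.39, 2.82 and 2.39 at 0 h and 1.48, 1.04 and 0.92 in the lower flank. The groups were nearly 1 log2 unit apart, the difference was -1.39 ± 0.19 (SE, adjusted p = 0.008), and it was called with any 1 of the 6 arrays left out. A brighter probe set of HOX10 gave -0.42 (adjusted p = 0.13, called at 0.045 with the replicate block), so the size of the change differs between probe sets. HOX9, of the same class, fell by 0.70 (adjusted p = 0.028), from 5.31, 5.14 and 5.48 to 4.45, 4.69 and 4.70. Among 42 homeobox genes tested with their brightest probe set, HOX9 was the 1 call, the median was -0.15 and 13 were above 0. The replicate block added HOX10 and HAZ1 (-0.62, adjusted p = 0.019). The Argonaute proteins OsPNH1 and AGO1B, which carry small RNAs and were picked out after their values had been seen, fell by 0.56 (adjusted p = 0.034) and 0.68 (adjusted p = 0.033).

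Among hormone genes the falls were single members of their lists. ARF17, an auxin response factor that binds the promoters of auxin targets, fell from 6.38, 6.15 and 6.58 to 5.68, 5.77 and 5.81, by 0.62 (adjusted p = 0.032). Of 16 auxin response factors 3 were above 0, and the median was -0.13, beside -0.12 over all tested probe sets. D3, the F-box protein of strigolactone perception, fell from 1.27, 1.69 and 1.51 to -0.24, 0.67 and 0.25, by 1.27 ± 0.25 (adjusted p = 0.031). SAPK9, a kinase of abscisic acid and osmotic signalling, fell by 0.76 (adjusted p = 0.034, 0.077 under quantile scaling), and 13 of the 15 genes in its list were below 0, with a median of -0.31. The replicate block added OsPYL11, an abscisic acid receptor (-0.51, adjusted p = 0.020). LOGL3, of the LOG family that releases active cytokinin, fell from 6.30, 6.17 and 5.86 to 5.34, 5.15 and 5.31, by 0.84 (adjusted p = 0.031, 0.050 under quantile scaling). No call was made among 25 Aux/IAA repressors (median -0.16), 9 GH3 enzymes (-0.16), 12 gibberellin genes (-0.12), 13 jasmonate synthesis genes (-0.08), 11 JAZ repressors (-0.21), 9 ethylene genes (-0.15) or 19 brassinosteroid genes (-0.05) by limma, with 5, 1, 0, 0, 1, 1 and 3 of them at an unadjusted p under 0.05. The replicate block called 1 of these, a brassinosteroid gene that was higher in the lower flank, and 0 of the rest.

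Of 17 heat shock factors and 13 clock and light signalling genes, 13 and 12 were below 0, where the median of all tested probe sets was itself -0.12. HSFB2C, a heat shock factor, read 0.89, 1.86 and 1.12 at 0 h and 0.17, -0.27 and -0.01 in the lower flank, a difference of -1.33 ± 0.26 (SE, adjusted p = 0.031). Its other probe sets gave -0.95 (adjusted p = 0.098, 0.012 with the replicate block) and -2.08 (adjusted p = 0.11), all downwards. A gene listed both as the heat shock factor HSFA2C and as ARD1, an enzyme of methionine recycling, fell by 1.08 (adjusted p = 0.024), with -0.72 at a second probe set (adjusted p = 0.53). The small heat shock protein HSP17.9A fell by 0.91 (adjusted p = 0.025), from 5.51, 6.10 and 6.10 to 4.86, 4.92 and 5.20. It was the 1 call among 10 tested heat shock proteins, whose median was -0.14. Of the 10, 2 were above 0, the highest at 0.98, and the replicate block called 2, of which 1 was higher. Over 17 heat shock factors, each read by its brightest probe set, 0 were called, 4 were above 0 and the median was -0.32, or -0.18 under quantile scaling. GI, the rice GIGANTEA, a clock output that acts in flowering time, fell from 3.0, 3.13 and 2.86 to 2.03, 1.78 and 2.13, by 1.02 ± 0.22 (adjusted p = 0.037, 0.090 under quantile scaling). GI was called in none of the 6 fits that left out 1 array each. In its list of clock and light signalling genes 12 of 13 were below 0 and the median was -0.34, the lowest among the lists of at least 5 genes. Under quantile scaling the median of that list was -0.23. PhyB and phyC, the light receptors phytochrome B and C, gave -0.39 and -0.47 without a call (adjusted p = 0.080 and 0.097). LIR1, a light-regulated gene, gave -0.94 (adjusted p = 0.064), and the replicate block called it (0.050) and PhyB (0.037), while the clock gene CCA1 gave 0.12.

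Among metabolic genes, OsSUS4, a sucrose synthase, fell from 3.51, 4.35 and 3.50 to 2.64, 2.68 and 3.0, by 1.02 (adjusted p = 0.034). It was 1 call in 29 starch and sucrose enzymes with a median of -0.04, and the replicate block added OsSUS2 (-0.39, adjusted p = 0.037). WSL3, named for the white-striped leaves of its mutant and needed for plastid gene expression, read 3.27, 3.56 and 3.07 at 0 h and 2.19, 2.46 and 2.05 in the lower flank. Its difference of -1.07 ± 0.15 (SE, adjusted p = 0.011) was called with any 1 of the 6 arrays left out. None of 11 photosynthesis genes was called, 10 of them lay above 0 and their median was 0.25, and the replicate block called 1, LHCP (1.0, adjusted p = 0.045). OsTIP4;1, a water channel of the vacuole membrane, fell by 0.53 (adjusted p = 0.047), as 1 call among 20 aquaporins. The replicate block added OsPIP1;3 (1.14, adjusted p = 0.042) and the aquaporin listed as AQP (-0.51, adjusted p = 0.021).

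**Figure D4:**
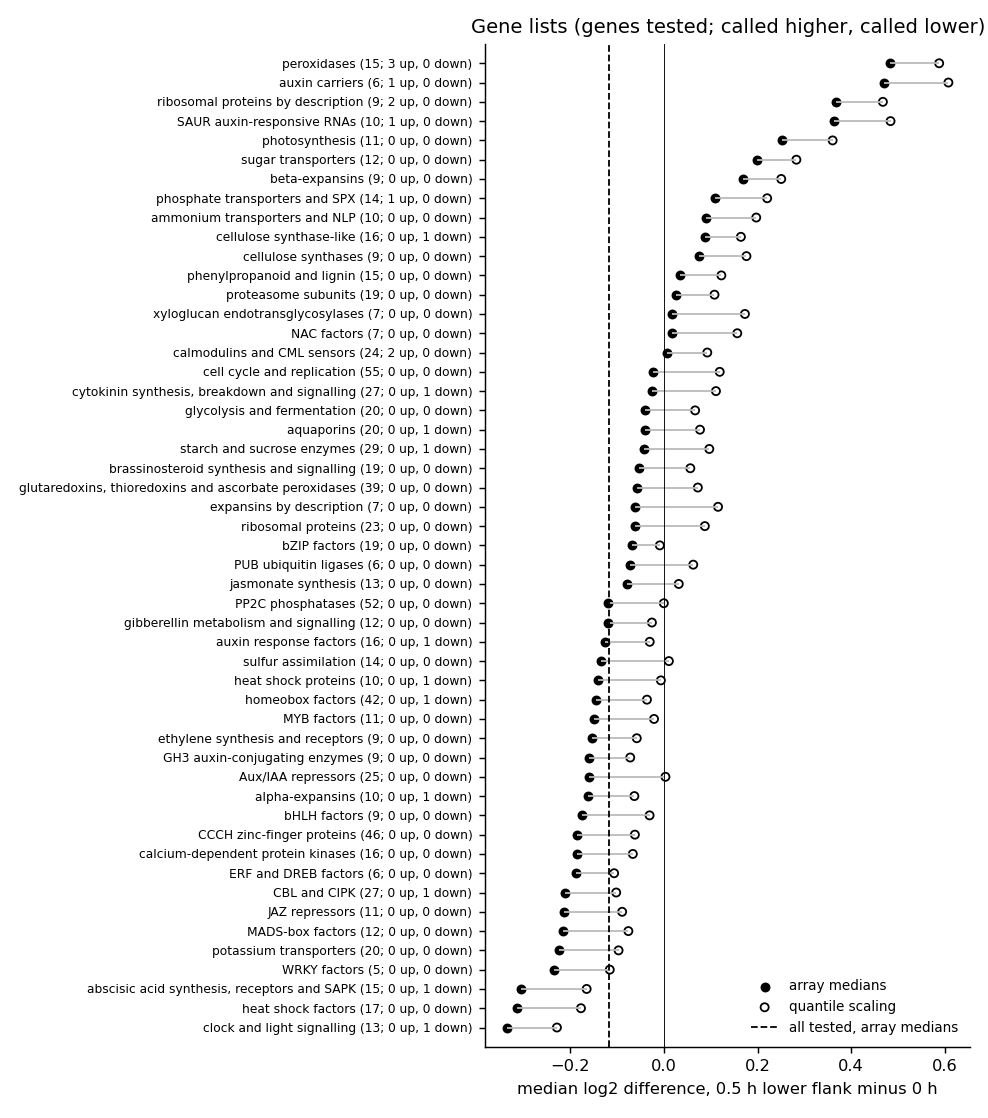
Median log2 difference of the 0.5 h lower flank from 0 h for each list of at least 5 tested genes, with array medians (filled) and quantile scaling (open), and in the label the genes tested and called in each direction. Medians ran from -0.34 for clock and light signalling to 0.48 for peroxidases, and quantile scaling moved every list to the right, as it did the median of all tested probe sets (dashed line at -0.12 before scaling).

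Genes known only by their locus held the largest changes of all. LOC4350534 (chromosome 11) read 2.57, 2.84 and 2.96 at 0 h and 5.08, 5.16 and 4.39 in the lower flank, a fold of 4.25 (adjusted p = 0.002), and Os10g36360 read 1.19, 1.68 and 1.41 against 3.33, 3.34 and 3.70, a fold of 4.09 (adjusted p = 0.002). LOC4341874 (1.54, adjusted p = 0.024) and LOC4325570 (1.48, adjusted p = 0.011) were the next rises. Downwards, LOC4337484 went from 5.71, 5.05 and 4.0 to 2.86, 2.59 and 2.21, a fold of 5.16 (adjusted p = 0.011). LOC4330612 went from 5.51, 4.22 and 4.36 to 2.17, 2.29 and 2.66, a fold of 5.0 (adjusted p = 0.003), and LOC4332989 differed by -2.11 ± 0.43 (SE, adjusted p = 0.034). LOC4341704 lay below the array median in both groups, at -0.88, -1.30 and -0.09 against -3.04, -2.16 and -2.67, so its difference of -1.87 rests on dim signals and was -0.33 once signals below 16 were raised to 16. Another dim probe set, of LOC9272115, held the largest difference of the comparison at -3.77 and gave -0.93 with that floor, while a brighter probe set of the gene gave -1.51.

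The lower flank was also compared with the upper flank at 0.5 h. Only 2 of 28629 probe sets (0.00699%) were called between the flanks, with 919 at an unadjusted p under 0.05, and both were among the rises of the lower flank against 0 h. Of the 469 members 6 differed between the flanks by at least 1 log2 unit, and of all 28629 tested probe sets 164 did. Since the same lower flank arrays enter both comparisons, an error in them moves both. The upper flank against 0 h gave 482 calls (1.68%) of its own, from the same 0 h arrays. Side by side for single genes, the differences from 0 h were 1.71 (lower) and 1.62 (upper) for OsPht1;6, 1.36 and 1.47 for CML17, 0.92 and 1.0 for BC1, -1.39 and -1.50 for HOX10, -1.33 and -1.36 for HSFB2C and -1.27 and -1.30 for D3. OsCel9A differed by 1.45 on the lower side and 0.84 on the upper, and OsCel9C by -1.13 and -0.52, gaps of 0.61 and -0.61 between the flanks that were not called (adjusted p = 0.99 for each).

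Both probe sets called between the flanks read SAUR genes with neighbouring locus numbers. OsSAUR48 (Os09g37430) read 2.39, 2.27 and 2.45 at 0 h and 3.26, 3.48 and 3.51 in the lower flank, a difference of 1.04 ± 0.16 (SE, adjusted p = 0.012). In the upper flank at 0.5 h it read 1.17, 0.77 and 1.36, which is 1.27 below 0 h (adjusted p = 0.004). The 3 groups did not overlap, with the upper flank lowest and the lower flank highest, and the flanks differed by 2.31 (adjusted p = 1.1e-04). The second probe set matches both Os09g37440, which is OsSAUR49, and Os09g37446, so its signal cannot be given to 1 gene. It read 2.24, 2.43 and 2.57 at 0 h, 3.16, 3.24 and 3.42 on the lower side and 1.69, 1.75 and 1.60 on the upper, differences of 0.86 (adjusted p = 0.011) and -0.74 (adjusted p = 0.018) from 0 h and of 1.59 between the flanks (adjusted p = 3.4e-04). By 6 h the lower flank had reached 6.28 ± 0.16 (SD, n = 3) for OsSAUR48 and 5.44 ± 0.16 for the second probe set, and the upper flank stood at 2.66 and 2.44. Related SAUR transcripts can share signal on such probe sets.

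The 10 tested SAUR genes with a description gave 1 call, OsSAUR48, and 8 of 10 lay above 0, with a median of 0.36. OsSAUR55 (Os09g37500) read 3.45, 3.51 and 4.14 at 0 h and 4.21, 4.22 and 4.54 in the lower flank, a difference of 0.62 ± 0.25 (SE, adjusted p = 0.23). Its lower flank arrays lay above all arrays at 0 h, but the difference was not called. OsSAUR22 gave 0.49 (adjusted p = 0.19, called at 0.022 with the replicate block). OsSAUR51 differed from 0 h by 0.30 and between the flanks by 1.33, with adjusted p-values of 0.42 and 0.051.

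**Figure D5:**
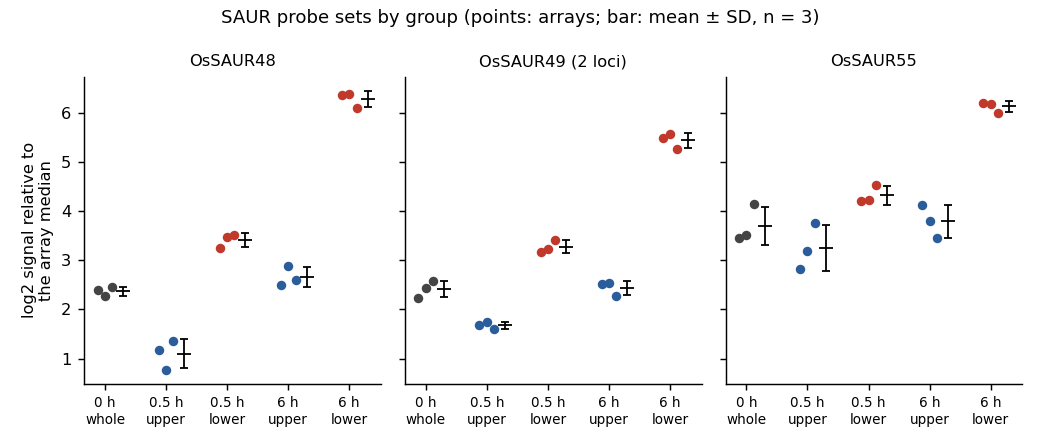
Log2 signal relative to the array median of 3 SAUR probe sets in the 5 groups, with points for arrays and a bar for the mean ± SD (n = 3). For OsSAUR48 and the probe set shared by OsSAUR49 and a second locus the 0.5 h lower flank lies above 0 h and the 0.5 h upper flank below it, and for OsSAUR55 the 0.5 h upper flank overlaps 0 h.

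Of 51 loci that the study names in its text, 26 had a tested probe set through its tables, and 1 was called, beside 1.64% of all tested probe sets. The study names many of these loci for differences between the flanks, often at 6 h, so the count does not bear on its statements. The called locus was LGC1 (Os02g30780), which fell from 3.33, 3.06 and 3.13 to 2.05, 2.35 and 2.10, by 1.0 ± 0.16 (adjusted p = 0.013). At 6 h it stood at 5.98 ± 0.10 (SD, n = 3) in the lower flank, above every array at 0 h. A UDP-glucose dehydrogenase that makes wall precursors, UGD4 (Os12g25690), differed by 0.40 ± 0.12 (SE, adjusted p = 0.12) and was called under quantile scaling (0.047) and with the replicate block (0.042). The auxin efflux carrier Os01g51780 differed by 0.54 (adjusted p = 0.17). A flavonol synthase, Os10g40934, differed by -1.21 (adjusted p = 0.21), with -0.79, -0.073 and -0.74 at its other probe sets.

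At 6 h many of these genes stood elsewhere in the lower flank. OsPht1;6 read 1.13, 0.74 and 0.83, CML17 0.82, 0.60 and 0.79, and BC1 2.09, 2.34 and 2.20, each below all arrays at 0 h. HOX10 read 2.61, 2.36 and 2.55, which overlapped its 0 h arrays, and GI read 4.05, 3.69 and 3.92, above them. CIPK10 reached 5.23, 4.89 and 5.19 from 1.55, 1.25 and 1.13 at 0 h. Plants at 6 h had spent longer in the dark as well, and time and turning cannot be told apart there either.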

How the data were processed

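RNA of pooled shoot bases or flanks was amplified and hybridised by the authors to Affymetrix rice arrays. The deposited intensity is 1 linear signal per probe set and array, calculated by the authors with GCOS (the submitters' notes name MAS5). Its scaling target and the genome build of the probe sets are not given in the sources used here. Of 57381 probe sets, 123 controls were left out. Signals were taken to log2, each array was centred on its median, and the 50% with the highest mean were kept, leaving 28629. The filter used no group labels.

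A linear model with a mean for each group was run over the 15 arrays (limma 3.58.1, R 4.3.3), with moderated variance (residual degrees of freedom 10, prior 2.67), and p-values were Benjamini-Hochberg adjusted within each comparison. The test was also run on simulated data, with noise drawn independently for each array. Those data held no link between same-numbered arrays, so the run does not check the test under such a link. A signal has no count behind it, so the 3 arrays a group set the precision. The labels call the arrays biological replicates, and p-values measure the spread between these pools. No 2 arrays held identical values.

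Same-numbered arrays of the lower flank and 0 h deviated together (correlations 0.42, 0.15 and 0.29, each above 0.1), as did those of the flanks at 0.5 h (0.50, 0.22 and 0.24). The main fit did not use this pairing, as the study's methods name no replicate block. The fit with the block is therefore given beside it where it changes a call in a list or gene described.

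Genes came from the array annotation, with 22436 probe sets of 1 gene, 95 of several and 34850 of none, from RefSeq symbols, and from descriptions in the study's tables (1241 probe sets), whose own values were not used. A list takes the brightest probe set of each gene. Members and lists were chosen with earlier results of these data known. The genes named are the 12 largest rises and falls with a named product and without overlap that kept their sign under quantile scaling, taking the brightest called probe set of a gene, the 4 largest each without a name, called list members, loci the study names with an unadjusted p under 0.05, and calls between the flanks at 0.5 h. Promoter motifs were planned but not analysed here. Alternatives were quantile scaling, no centring, centring on the tested probe sets, other filters, a floor of 16, the replicate block, an intensity trend, the 6 arrays alone and leaving out arrays.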

Additional observations from a re-analysis of the deposited data

Results flagged for a closer look

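The differences from 0 h were unlike in the 2 flanks at 0.5 h for 2 probe sets, by limma's test of the lower against the upper flank, which is the difference of their changes from 0 h. OsSAUR48 differed by 2.31 on the log2 scale (adjusted p = 1.1e-04), with all 3 lower flank arrays above and all 3 upper flank arrays below the 0 h arrays. The probe set shared by OsSAUR49 and Os09g37446 differed by 1.59 (adjusted p = 3.4e-04), in the same order. Groups of 3 arrays were not tested for single outlying arrays.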

How the results depend on the processing

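The number of calls depended on the processing. No difference of the 49 named genes changed sign where an alternative gave a value, but most were picked for keeping it under quantile scaling. The block, the trend and the filters leave differences as they are, and the brightest 14314 probe sets hold 22 of the 49. Where the lower flank and 0 h arrays do not overlap, leaving out arrays cannot change a sign. Calls of the lower flank against 0 h (469, 153 of at least 2-fold) became 74 and 62 without centring, 22 and 21 with no filter on dim probe sets, 1894 and 246 with the replicate block, 0 and 0 from the 6 arrays compared, and 39 and 36 without the replicate 1 arrays of every group (chosen after seeing the data). The brightest 14314 probe sets gave 88 of at least 2-fold. Leaving out 1 array gave 64 to 428 calls and 50 to 188 of at least 2-fold. HOX10 and WSL3 were called in all 6 such fits, and OsPht1;6, PIN9, CML5, Cht5, HSFB2C and ARF17 in 1. GI, EXPA6, SAPK9 and OsTIP4;1 were called in none of them. Calls between the flanks at 0.5 h (2) were 0 among the brightest 14314, where both SAUR probe sets are left out, 0 with 6 arrays alone, 0 without replicate 1 arrays, 3 with a floor of 16, 2 with the replicate block and 3 with an intensity trend, and 2 to 8 with 1 array left out (8 without upper flank replicate 3). The upper flank against 0 h (482) gave 69 without centring, 38 with no filter, 1717 with the replicate block, 0 with 6 arrays and 223 without replicate 1 arrays. With 1 array left out it gave 69 to 359 (69 and 92 without upper flank replicates 2 and 3). The lowest correlation of its same-numbered arrays was 0.063. The 6 h against the 0.5 h lower flank (6985) gave 4526 among the brightest 14314, where fewer were tested, and 5251 to 6531 with 1 array left out. Of the 49 named genes, 40 kept their side of the threshold under quantile scaling, where 8 lost and 1 gained the call, and 48 did with the replicate block, where 1 gained it. The causes of these shifts were not tested. The number of arrays limits precision, and the size of a change in dim probe sets depends on the floor, as for LOC4341704 (-1.87, or -0.33 with a floor of 16).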
